A study of Mus musculus with 7 samples.

Results

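The SoxB1, SoxC, SoxE and SoxF transcription factors named here mark tissues of different germ layers, and their RNA was compared between posterior second heart field (pSHF) tissue of *Shh* mutant and wild-type mouse embryos. The 10 genes were chosen by name, with earlier results of these data known, and placed in 3 groups. The neural genes were *Sox1*, *Sox2*, *Sox3* and *Sox11*, the crest and sclerotome genes were *Sox8*, *Sox9* and *Sox10*, and the endothelial or endoderm genes were *Sox7*, *Sox17* and *Sox18*. Of these 10 genes, 9 had a probe on the array and 8 had a probe bright enough to test, among 14848 genes tested in all. *Sox3* had no probe under that name. The genes had 22 probes on 31 spots of each array, and 18 of these probes were tested. To be tested, a probe had to be well above background in all pools of the mutant or in all pools of the wild type.

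Sox proteins share the HMG box, a DNA-binding domain that fits into the minor groove and bends the helix. The SoxB1 genes *Sox1*, *Sox2* and *Sox3* keep neural progenitors from differentiating, and *Sox2* is also a marker of the anterior foregut epithelium. *Sox11*, of the SoxC group, is active in newly formed neurons and in embryonic mesenchyme. The SoxE genes act in the neural crest, where *Sox10* marks migrating crest and glia, and *Sox9* also drives cartilage formation in the sclerotome downstream of Hedgehog signalling. The SoxF genes *Sox7*, *Sox17* and *Sox18* act in endothelial cells, and *Sox17* is needed to form definitive endoderm.

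The wild-type group was Shh +/+ and the mutant group Shh -/-, both from crosses of Shh +/- parents on a mixed C56B/6 and CD-1 background, with superovulated females. The mutation is a germline null, so every cell of the mutant embryos lacked *Shh* function, in the neural tube and notochord as well as in the foregut. Tissue was microdissected at embryonic day 9.5, with the foregut attached and without the heart or the neural tube, and embryos of a genotype were pooled before RNA was extracted. The number of embryos in a pool is not given in the sources used here. There were 4 mutant pools (1, 2, 3 and 4) and 3 wild-type pools (1, 3 and 4), each hybridized to 1 single-colour array. A mutant and a wild-type pool of the same number shared a slide. On each such slide the first position held the mutant pool and the second the wild-type pool, and effects of position and of genotype therefore cannot be told apart. No wild-type pool shared the slide of mutant pool 2, whose label warns of a possible leak during hybridization. The pools are separate samples by their labels, and p-values measure the spread between these pools. In such pooled tissue, fewer cells of a type and less RNA per cell cannot be told apart.

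The oligos below are the parts of the transcripts that the results turn on, printed 5′ to 3′ as the array carries them, with mm9 positions. They are shown because the *Sox9* probe nearest the start of the gene was the one whose pools did not overlap, and because *Sox2ot*, the long non-coding RNA gene that surrounds *Sox2*, held the largest change at the *Sox2* locus. Capitals mark a run of 10 bases that only the *Sox9* and *Sox11* oligos share among the 22 oligos of these genes, in the coding sequence of the HMG box.
*Sox9* (chr11:112644310-112645162, plus strand): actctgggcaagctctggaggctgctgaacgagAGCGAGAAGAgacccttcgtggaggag
*Sox11* (chr12:28026950-28027009, minus strand): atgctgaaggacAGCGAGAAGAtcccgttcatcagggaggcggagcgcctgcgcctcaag
*Sox8* (chr17:25705869-25705928, minus strand): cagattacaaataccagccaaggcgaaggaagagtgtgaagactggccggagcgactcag
*Sox1* (chr8:12397120-12397179, plus strand): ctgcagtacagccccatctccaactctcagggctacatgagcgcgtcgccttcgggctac
*Sox2ot* (chr3:34576768-34576827, plus strand): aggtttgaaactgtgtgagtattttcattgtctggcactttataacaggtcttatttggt
The 60 bases of the *Sox9* oligo span 853 bases of the genome, so this probe crosses a splice junction. The run starts at base 34 of the *Sox9* oligo and at base 13 of the *Sox11* oligo, and the sequence around it differs between the genes.

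The arrays had 59.8% to 70.6% of all probes well above background. The *Shh* probe gave normalized log2 signals of 9.67, 9.39, 9.23 and 9.32 in mutant pools 1 to 4 and of 10.72, 10.74 and 9.99 in wild-type pools 1, 3 and 4. The genotypes did not overlap, with a log2 change (mutant minus wild type) of −1.08 and a limma adjusted p of 0.0632, and whether this probe lies in the deleted part of the gene was not tested. *Hhip*, a Hedgehog target that encodes a ligand-binding inhibitor, fell by 2.80 (limma adjusted p = 0.00121). The target genes *Gli1* and *Ptch1* had changes of −1.01 and −1.14 with limma adjusted p-values of 0.0662 and 0.135. Markers of heart muscle, a tissue left out of the dissection, were bright in every pool, with a mean log2 level of 6 genes of 14.00 to 15.18 in mutant pools and 14.15 to 14.85 in wild-type pools.

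No *Sox* gene of the 8 tested passed an adjusted p of 0.05 in limma, and none that was tested did in any of the 18 alternative settings that could count them, of which the interquartile range filter left 4 of the 8 to test. Among all 23071 probes tested, 130 passed (0.563%; 0.299% lower and 0.264% higher in the mutants), or 0.788% of the brightest probes of all genes. The 130 fell to 11 with slide as a fixed block and to 11 without mutant pool 3. An unadjusted p under 0.05 was found for 2 of the 18 *Sox* probes, the *Sox2* probe and the probe at the start of *Sox9*, and for 7.93% of all probes. The change of the brightest tested probe was negative in 7 of the 8 genes and was 0.01 in *Sox9*, which turned negative under every other scaling tried. Among all probes 45.5% had a negative change, the median change was 0.01, and the central range from the 5th to the 95th percentile ran from −0.35 to 0.32. *Sox2*, *Sox8* and *Sox10* lay below that range, and the other 5 genes lay inside it. Mutant and wild-type pools did not overlap for 2 of the 18 *Sox* probes, those of *Sox2* and of the start of *Sox9*, against 8.27% of all probes with a value on every array (3.63% lower and 4.64% higher in the mutants). The *Sox9* start probe was tested through its wild-type pools alone, which favours a lower mutant signal. Its part in these counts is a description.

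**Figure D1:**
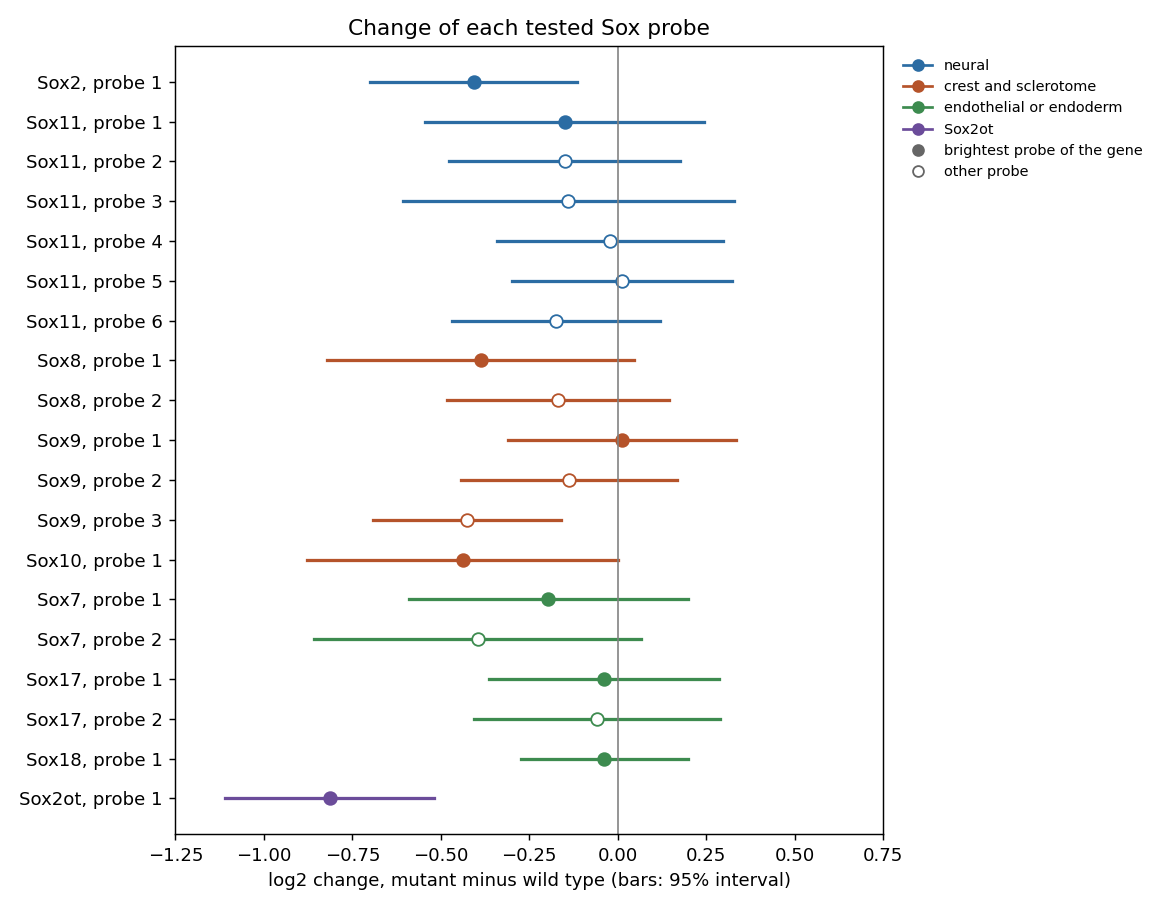
Log2 change, mutant minus wild type, of each tested *Sox* probe and of *Sox2ot*, with its 95% interval from limma; filled points are the brightest probe of a gene and colours are the 3 groups. The intervals of *Sox2* (−0.70 to −0.11), of the third *Sox9* probe (−0.69 to −0.16) and of *Sox2ot* (−1.11 to −0.52) lie below 0, and that of *Sox10* (−0.88 to 0.00) reaches it. The third *Sox9* probe was tested through its wild-type pools alone, which favours a lower mutant signal.

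*Sox2* had 1 probe, at chr3:34550773-34550832 on the plus strand. Its log2 signal was 9.48, 9.26, 9.33 and 9.21 in mutant pools 1 to 4 and 9.51, 9.89 and 9.77 in wild-type pools 1, 3 and 4. The groups did not overlap, but mutant pool 1 and wild-type pool 1 lay only 0.03 apart. The change was −0.41 (SE 0.13, limma adjusted p = 0.327), from a mean of 9.32 ± 0.12 (SD, n = 4) in the mutants and 9.72 ± 0.20 (SD, n = 3) in the wild type. On the slides of pools 3 and 4 the difference was −0.57 and −0.56, and on that of pools 1 it was −0.03. *Sox2* ranked 830 of the 23071 probes by p, and its change ran from −0.52 to −0.32 with any 1 pool left out.

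*Sox2ot* is transcribed from the same strand as *Sox2*, which lies within it, and its oligo starts 25935 bases after the end of the *Sox2* oligo. The array names it B230215L15Rik. Its signal was 6.21, 6.04, 6.09 and 6.33 in mutant pools 1 to 4 and 6.85, 7.20 and 6.90 in wild-type pools 1, 3 and 4. The lowest wild-type pool lay 0.52 above the highest mutant pool. *Sox2ot* fell by 0.81 (SE 0.13, limma adjusted p = 0.0411), and the difference within slides was −0.64, −1.11 and −0.56 for pools 1, 3 and 4. The call was narrow. With slide as a fixed block the change was −0.77 with an adjusted p of 0.133, and with any 1 of the 7 pools left out, mutant or wild type, the adjusted p ran from 0.0521 to 0.146 while the change stayed between −0.88 and −0.71. The other 2 probes of *Sox2ot* were not well above background in any pool.

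**Figure D2:**
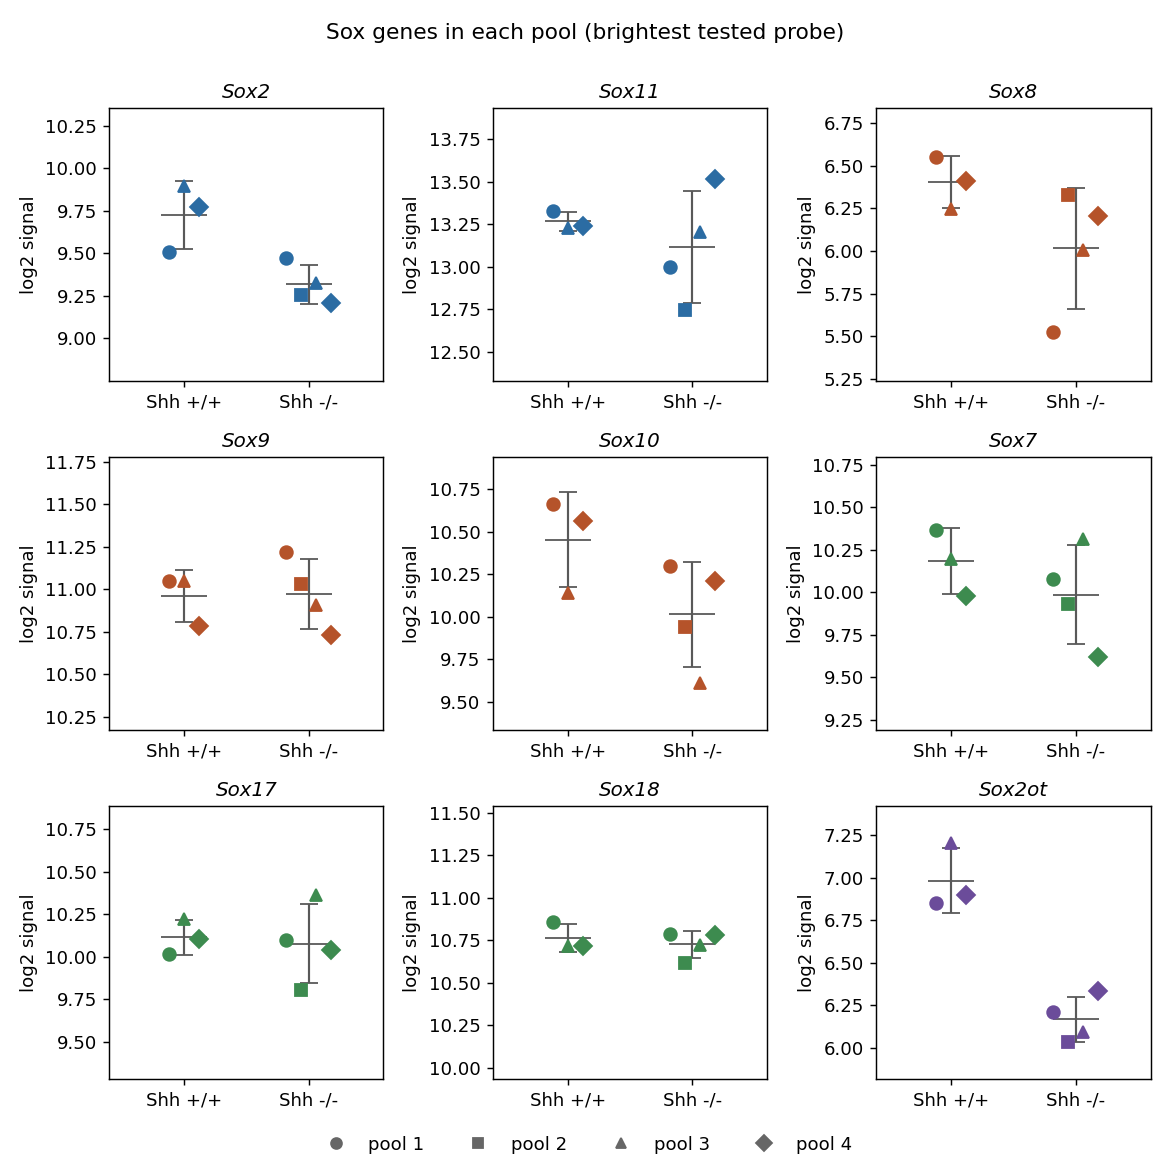
Normalized log2 signal of the brightest tested probe of each of the 8 *Sox* genes and of *Sox2ot* in every pool, with symbols for the pool number, the mean as a line and the SD as bars; each panel spans the same height on the log2 scale. The genotypes are apart in *Sox2* by 0.03 and in *Sox2ot* by 0.52, and overlap in the other 7 genes.

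*Sox11* was measured by 6 probes over 7409 bases, and none separated the genotypes. Their changes ran from −0.18 to 0.01, and the limma adjusted p was 0.9996 for each. On the probe nearest the end of the gene, the signal was 13.00, 12.75, 13.21 and 13.52 in mutant pools 1 to 4 and 13.33, 13.23 and 13.24 in wild-type pools 1, 3 and 4. Here the mutant pools spread to both sides of the wild-type pools, with an SD of 0.33 (n = 4) against 0.05 (n = 3). The probe in the middle, 4093 bases from the first, ordered the mutant pools the other way, with 12.30, 12.54, 11.76 and 11.77 for pools 1 to 4. Mutant pool 2 was thus the lowest mutant pool on the end probe and the highest on the middle probe, and no single trend across pools describes *Sox11*.

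*Sox1* had 1 probe, printed above, and stood well above background in 1 of 4 mutant pools and in 0 of 3 wild-type pools. Its log2 signal was 4.62, 4.21, 4.19 and 4.14 in mutant pools 1 to 4 and 4.42, 3.92 and 4.07 in wild-type pools 1, 3 and 4. Both groups were at background, so no fold is given.

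*Sox10* had the largest change in size among the brightest probes of the 8 genes. Its signal was 10.30, 9.94, 9.61 and 10.21 in mutant pools 1 to 4 and 10.66, 10.14 and 10.57 in wild-type pools 1, 3 and 4. Wild-type pool 3 lay among the mutant pools, so the groups overlapped. The change was −0.44 (SE 0.19, limma adjusted p = 0.635) with a 95% interval of −0.88 to 0.00, and within slides it was −0.36, −0.52 and −0.35 for pools 1, 3 and 4. *Sox10* was therefore lower in the mutant pool of all 3 slides. It had a second probe 1378 bases nearer the start of the gene, which was not well above background in any mutant pool and was in 2 of 3 wild-type pools.

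*Sox8* was lowest in mutant pool 1. On its brighter probe, the oligo printed above, the signal was 5.52, 6.33, 6.01 and 6.21 in mutant pools 1 to 4 and 6.55, 6.25 and 6.41 in wild-type pools 1, 3 and 4. The change was −0.39 (SE 0.19, limma adjusted p = 0.743), and −0.22 without mutant pool 1. The slide differences were −1.03, −0.24 and −0.20 for pools 1, 3 and 4, all negative. The second probe, 2775 bases downstream, had a change of −0.17 (SE 0.14), and mutant pool 1 did not stand apart there, at 5.35 against 5.22 to 5.67 in the other mutant pools.

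*Sox9* was read by 3 probes, whose intervals all overlapped. The brightest, at chr11:112647008-112647067, read 11.22, 11.03, 10.91 and 10.73 in mutant pools 1 to 4 and 11.05, 11.05 and 10.78 in wild-type pools 1, 3 and 4, and the groups lay over each other. Its change was 0.01 with a 95% interval of −0.31 to 0.33. The probe nearest the end of the gene, printed on 10 spots per array, had a change of −0.14 (SE 0.13) with an interval of −0.44 to 0.17. The splice junction probe printed above read 4.75, 4.87, 4.81 and 4.52 in mutant pools 1 to 4 and 5.22, 5.11 and 5.17 in wild-type pools 1, 3 and 4. The genotypes did not overlap, and the gap between them was 0.24. This probe was well above background in 1 of 4 mutant pools and in all 3 wild-type pools. It was therefore tested through its wild-type pools alone, and a probe that enters this way tends to read lower in the mutants. Its lower signal is a description. With dim signals raised to the lowest one well above background on the array, the mutant mean was 1.33-fold lower under the main processing. The fitted change was −0.43 with a 95% interval of −0.69 to −0.16 (limma adjusted p = 0.223). The fold is thus an estimate and not a lower limit, and it does not hold in other settings. The change of this probe was −0.13 after quantile normalization, −0.20 when the background was not corrected and −0.08 in the authors' values brought to a common median.

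*Sox7* was read by 2 probes 6223 bases apart. The brighter read 10.08, 9.93, 10.31 and 9.62 in mutant pools 1 to 4 and 10.37, 10.20 and 9.98 in wild-type pools 1, 3 and 4, and the groups overlapped. Its change was −0.20 (SE 0.17, limma adjusted p = 0.9996). On the upstream probe the wild-type pools were close together at 8.10, 8.22 and 8.20, and the mutant pools fell into a low pair, 7.36 in pool 1 and 7.53 in pool 4, and a high pair, 7.99 in pool 2 and 8.24 in pool 3. The change there was −0.40 (SE 0.20, limma adjusted p = 0.780), with slide differences of −0.74, 0.01 and −0.67 for pools 1, 3 and 4.

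*Sox17* and *Sox18* both had changes near 0. *Sox17* read 10.10, 9.80, 10.36 and 10.04 in mutant pools 1 to 4 and 10.02, 10.22 and 10.11 in wild-type pools 1, 3 and 4. Its change was −0.04 with a 95% interval of −0.36 to 0.29, and the second tested probe had −0.06 (SE 0.15). The remaining 2 *Sox17* probes, of which 1 lies on the opposite strand to the gene, were not well above background in any pool. *Sox18* read 10.79, 10.62, 10.72 and 10.78 in mutant pools 1 to 4 and 10.86, 10.72 and 10.72 in wild-type pools 1, 3 and 4. All 7 values lay within 0.24, the narrowest range of the 8 genes, and the interval of the change, −0.27 to 0.20, bounds the difference that these pools allow.

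Of the 5 genes with 2 or more tested probes, the tested probe nearest the start of the gene had the lowest change in all 5. The share over all other genes with several probes was not taken, so this count has no background to be read against. In *Sox9* that probe was tested through its wild-type pools alone, which favours a lower mutant signal. In *Sox17* it lies 3341 bases downstream of the first oligo of the gene and 387 bases from the end probe. The log2 change there minus that at the probe nearest the end was −0.03 in *Sox11*, −0.22 in *Sox8*, −0.29 in *Sox9*, −0.20 in *Sox7* and −0.02 in *Sox17*. The pools of both genotypes overlapped in each of these differences, and no exact two-sided permutation test over the pools passed (lowest p = 0.171 for *Sox9*, adjusted over the 5 genes 0.857), in a design whose smallest possible p is 0.0571. The count was 3 of 5 with quantile normalization, where *Sox9* and *Sox11* left the pattern, 4 of 5 with no background correction, where *Sox11* did, and 3 to 5 of 5 with 1 pool left out. The start probe was also the richer in G and C in all 5 genes, by as much as 60.0% against 30.0% in *Sox9* and as little as 41.7% against 40.0% in *Sox7*. The pattern was seen first and tested after.

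**Figure D3:**
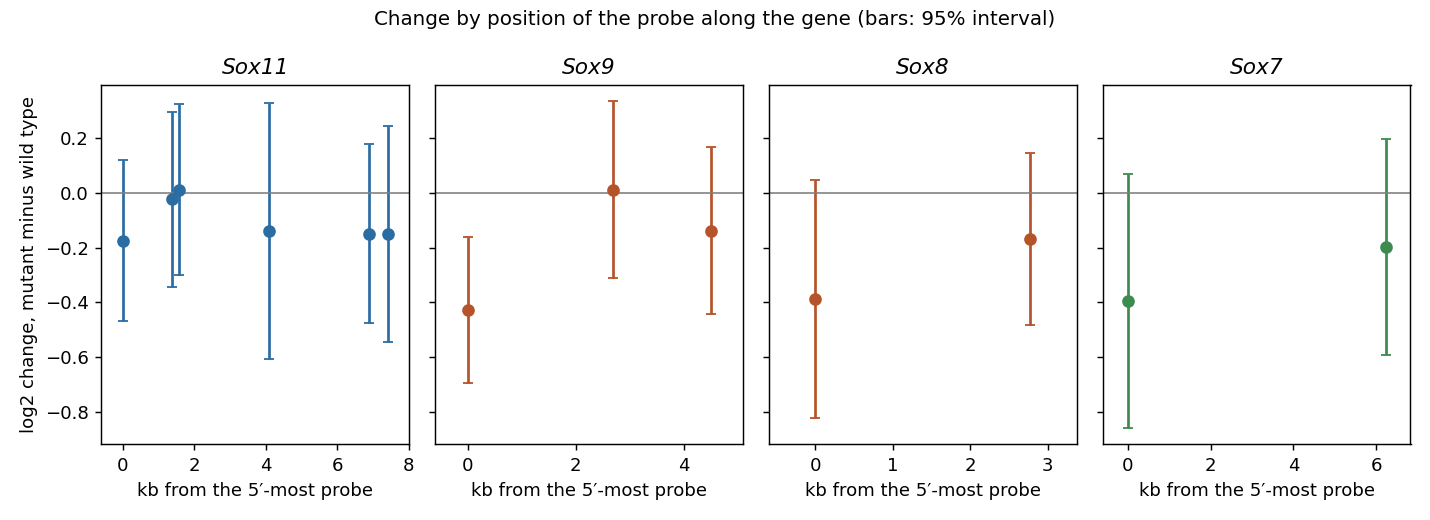
Log2 change, mutant minus wild type, with its 95% interval for each tested probe of *Sox11*, *Sox9*, *Sox8* and *Sox7*, against the distance in kb from the probe nearest the start of the gene. The first probe has the lowest change in each panel under the main processing, −0.18, −0.43, −0.39 and −0.40 in turn, while all intervals within a gene overlap.

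Within the 3 slides that hold both genotypes, the brightest tested probes of *Sox2*, *Sox8* and *Sox10* were lower in the mutant pool of every slide, as was *Sox2ot*. The share of all probes lower on every slide was not taken, so this count has no background to be read against. *Sox7*, *Sox9*, *Sox11* and *Sox17* had slides of both signs on their brightest probe. The splice junction probe of *Sox9*, tested through its wild-type pools alone, was lower on every slide, at −0.47, −0.30 and −0.64 for pools 1, 3 and 4. In *Sox18* the slide differences were −0.07, 0.00 and 0.07 for pools 1, 3 and 4. The largest negative difference was on slide 1 for *Sox8*, *Sox11* and *Sox18*, on slide 3 for *Sox2*, *Sox9* and *Sox10*, and on slide 4 for *Sox7* and *Sox17*. In *Sox2* slides 3 and 4 were close, at −0.57 and −0.56. These positions are a description, and an effect of slide on them was not tested.

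**Figure D4:**
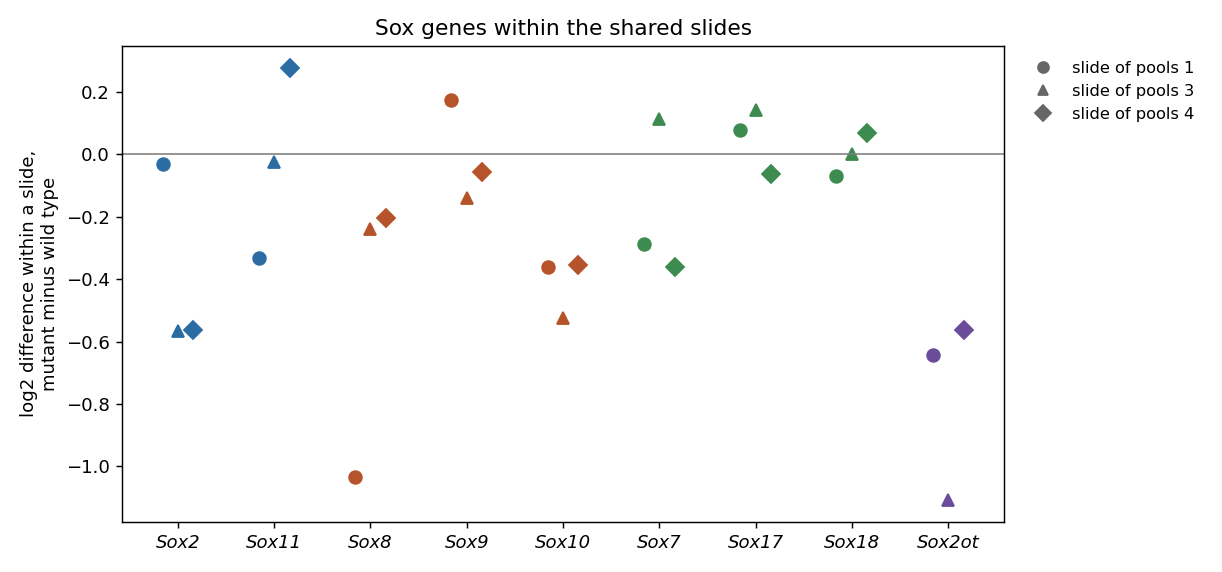
Difference in log2 signal, mutant minus wild type, between the arrays that shared a slide, for the brightest tested probe of each *Sox* gene and of *Sox2ot*; each symbol is 1 slide. *Sox10* (−0.52 to −0.35) and *Sox2ot* (−1.11 to −0.56) are below 0 on all 3 slides, and *Sox8* is drawn down by slide 1 at −1.03.

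By group, the median change was −0.28 over the 2 neural genes tested, −0.39 over the 3 crest and sclerotome genes and −0.04 over the 3 endothelial or endoderm genes, against 0.03 over the brightest probes of all genes. The crest and sclerotome median ranged from −0.47 to −0.22 and the endothelial or endoderm median from −0.13 to 0.00 with 1 pool left out. These medians rest on 2 or 3 genes each and carry no test.

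Marker genes of the same tissues were read beside the *Sox* genes, each by its brightest tested probe. All lists were chosen with earlier results of these data known, so their counts are a description. Of 8 neural progenitor markers tested 0 passed, with 3 at an unadjusted p under 0.05, and their median change was −0.08. Over all probes 7.93% had an unadjusted limma p under 0.05. The lowest p-values were those of *Nkx6-1*, a homeobox gene of the ventral neural tube and pancreas, at −0.86 (limma adjusted p = 0.0647), of *Hes5*, a Notch target, at −2.64 (0.105), and of *Pou3f1*, a POU factor, at −0.51 (0.114). *Pou3f2*, *Pou3f3*, *Nkx2-2* and *Irx3* were not tested for want of signal. Of the 8 markers tested, 5 had a negative change and 3 a positive one. The mean log2 level of this list was 8.66 to 8.94 in mutant pools and 9.14 to 9.48 in wild-type pools, without overlap. *Hes5*, at −2.64, had the largest change in that mean, and the level without it was not taken. The dissection left the neural tube out, and any part of neural tube tissue in the *Sox2* values was not tested. Among 8 neuron genes 0 passed and 1 had an unadjusted p under 0.05, *Dcx* at 0.34, with a median of −0.30. *Neurod1* and *Neurog1*, proneural factors with the next lowest p-values, had changes of −0.53 and −0.28 (limma adjusted p = 0.824 and 0.846) with overlapping pools, and were well above background in 2 and 3 of the 4 mutant pools.

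Of 10 neural crest markers tested 0 passed, 5 had an unadjusted p under 0.05, and 8 had a negative change, with a median of −0.13. Over all probes 7.93% had an unadjusted limma p under 0.05. The AP-2 factors *Tfap2b* and *Tfap2a* had changes of −0.69 (limma adjusted p = 0.207) and −0.55 (0.384). The mean level of the crest list was 9.25 to 9.52 in mutant pools and 9.54 to 9.78 in wild-type pools, and its part in the *Sox10* values was not tested.

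In the sclerotome and cartilage list, the tissue of *Sox9*, 3 of 13 genes were called lower and none higher. Among the brightest probes of all genes, 0.788% were called in either direction. The list was chosen with earlier results of these data known, so its share is a description. The change was negative in 10 genes and positive in 3, with a median of −0.19. The highest was that of *Scx*, at 0.48 (limma adjusted p = 0.426). *Pax1* and *Pax9* are paired-box factors of the sclerotome and pharyngeal endoderm. *Pax1* fell by 2.98 (limma adjusted p = 0.0396). *Pax9* had a fitted change of −2.44 (limma adjusted p = 0.0339). With dim signals raised to the lowest one well above background, its mutant mean was 3.88-fold lower, an estimate and not a lower limit. *Pax9* was well above background in only 1 of 4 mutant pools. It was tested through its wild-type pools alone, which favours a lower mutant signal, so its place among the 3 calls is a description. The change of *Pax9* was −1.27 after quantile normalization and −1.78 when the background was not corrected. *Col9a1*, a cartilage collagen gene and a known target of *Sox9*, fell by 0.90 (limma adjusted p = 0.0228), from 9.72, 9.51 and 9.77 in wild-type pools 1, 3 and 4 to 8.78, 8.70, 8.66 and 8.93 in mutant pools 1 to 4. *Col2a1*, the main cartilage collagen gene and also a *Sox9* target, had a change of −0.59 (0.0602). With slide as a fixed block the adjusted p was 0.0683 for *Col9a1*, 0.127 for *Pax1* and 0.0601 for *Pax9*. Without wild-type pool 1, the pool whose loss weakened these calls most, it was 0.118, 0.169 and 0.193. *Col9a1* also missed the threshold without mutant pools 2 or 3 or wild-type pools 3 or 4, at 0.0575 to 0.0889.

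Endothelial markers, the tissue of *Sox7*, *Sox17* and *Sox18*, included 1 call among 15 tested. Among the brightest probes of all genes 0.788% were called. Of the 15 markers, 12 had a positive change and the median was 0.04. *Etv2*, an early regulator of endothelial and blood progenitors, fell by 0.89 (limma adjusted p = 0.0395), and by 0.86 at an adjusted p of 0.0918 with slide as a fixed block. Without 1 pool its adjusted p was 0.0269 to 0.192, the highest without wild-type pool 1. *Flt4*, a receptor of lymphatic and venous endothelium, had a change of −0.59 (0.366) with overlapping pools and was well above background in 2 of 4 mutant pools, and *Tie1* had a change of 0.35 (0.545). The mean level of the list was 10.43 to 10.77 in mutant pools and 10.60 to 10.68 in wild-type pools.

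Among 10 foregut endoderm markers tested 1 passed, against 0.788% of the brightest probes of all genes, and the median was −0.10. *Nkx2-1*, a factor of the lung and thyroid primordia, fell by 0.88 (limma adjusted p = 0.0495), with an adjusted p of 0.0683 with slide as a fixed block and 0.0549 to 0.243 with any 1 pool left out. *Hhex* and *Krt8* had changes of 0.54 (0.154) and 0.39 (0.396). In the liver bud list *Ttr*, *Fgb* and *Alb*, genes of early hepatocytes, rose by 0.90, 0.82 and 1.21 (limma adjusted p = 0.0333, 0.0495 and 0.0495). These were 3 of 5 tested with none lower, against the same 0.788%. This list, too, was chosen with earlier results of these data known, so its share is a description. With slide as a fixed block the limma adjusted p-values of the 3 genes were 0.109, 0.126 and 0.0918. The mean level of the foregut list was 11.20 to 11.27 in mutant pools and 11.26 to 11.36 in wild-type pools.

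**Figure D5:**
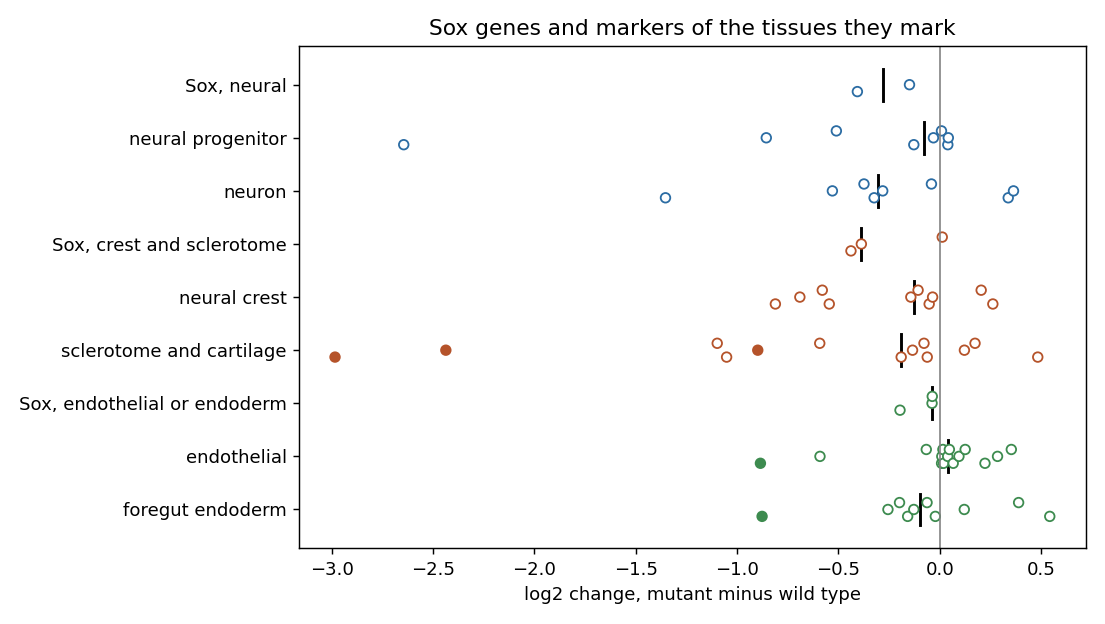
Log2 change, mutant minus wild type, of the *Sox* genes of each group and of marker genes of the tissues they mark; each point is a gene by its brightest tested probe, filled where the limma adjusted p was under 0.05, and the bar is the median of the row. The medians of the 3 *Sox* groups were −0.28, −0.39 and −0.04, and no *Sox* gene is filled.

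The second heart field, heart muscle and erythroid lists gave 0 calls. Of 12 second heart field genes the median was −0.17, with *Foxf1* (Foxf1a on the array) at −0.79 (limma adjusted p = 0.0895), *Fgf10* at 0.55 (0.193) and *Osr1* at −0.88 (0.226). An unadjusted limma p under 0.05 was found for 5 of the 12, and for 7.93% of all probes. All 6 heart muscle genes had positive changes, with a median of 0.23, and *Tnnt2*, *Nppa* and *Myh6* had changes of 0.22, 0.24 and 0.25 at an adjusted p of 0.9996. All 6 erythroid genes had negative changes, with a median of −0.39, and *Klf1* and *Hba-x* had changes of −0.53 and −0.38 with adjusted p-values of 0.490 and 0.836.

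Known targets of Sox proteins were taken as a list of 15 genes, of which 12 were tested. *Col9a1*, described above, was the only one to pass, 7 had a negative change, 6 had an unadjusted p under 0.05, and the median was −0.14. This call is the same as in the sclerotome and cartilage list. Among the brightest probes of all genes 0.788% passed, and 7.93% of all probes had an unadjusted limma p under 0.05. *Prox1*, a target of *Sox18* in lymphatic endothelium that is also a gene of the liver bud, had a change of 0.58 (limma adjusted p = 0.247), its mutant pools at 9.96, 9.89, 10.12 and 9.44 and its wild-type pools at 9.35, 9.33 and 9.15.

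The Sox family outside the 10 genes was read as a list of 9 genes, of which 7 were tested and 0 passed. The change was negative in 6 of the 7, with a median of −0.22. *Sox6*, a partner of *Sox9* in cartilage that also acts in erythroid cells and muscle, was the exception. Its brightest probe read 9.97, 9.86, 10.09 and 9.80 in mutant pools 1 to 4 and 9.58, 9.53 and 9.35 in wild-type pools 1, 3 and 4. The mutant pools lay above the wild-type pools without overlap, and the change was 0.44 (SE 0.12, limma adjusted p = 0.206). A second *Sox6* probe had a change of 0.37 (SE 0.12), again without overlap, and the third tested had 0.12 (SE 0.13) with overlap. In the authors' values, where the array of mutant pool 2 has a median of 5.50 against 8.57 to 9.93 on the other 6 and the median change over all probes is −0.54, the change of the brightest *Sox6* probe was −0.21, and it was 0.40 once the arrays were set to a common median. *Sox12* had the next lowest p, with a change of −0.23 (limma adjusted p = 0.745).

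The genes whose centred log2 values lay nearest those of a *Sox* gene over the 7 arrays were found for the gene of widest range in each group. For *Sox10*, which spanned 1.05, they were *Skap1*, *Nkain4* and *Slitrk6*, at root mean square differences of 0.10, 0.11 and 0.12 against a median of 0.37 over 14790 genes. For *Sox11*, which spanned 0.77, they were *Pitrm1*, *Vrk2* and *Tpbg*, at 0.06, 0.06 and 0.07 against a median of 0.27. For *Sox7*, which spanned 0.75, they were *Padi1*, *Cdh1* and *Tmem25*, at 0.08, 0.08 and 0.09 against a median of 0.30. With 7 arrays and so many genes, some will lie this near to any pattern, and the lists are a description.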

How the data were processed

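RNA of 7 pools (4 mutant, 3 wild type) was measured on single-colour Agilent arrays. The authors' deposited scan files hold spot signals and backgrounds as intensity from Feature Extraction 10.5.1.1, and a deposited table holds the authors' normalized log2 values. Genotype and pool number were read from the labels, whose strain and genotype entries are exchanged. Mean signals were corrected by normexp on the 153 negative controls (offset 50), normalized by VSN (own code, trimming share 0.9, 7 iterations, 5 strata) and taken as log2. The 155 to 206 spots flagged as outliers on an array were dropped, no spot was saturated, and spots of a probe were averaged. Array medians then lay within 0.18. Of 41174 probes, 34621 carried a gene name and 23071 were tested, with limma 3.58.1 in R 4.3.3 (tables by the data.table package, 1.17.8) and Benjamini-Hochberg adjustment over all of them. The brightest tested probe stood for a gene. Where a genotype was dim on some arrays, a fold was taken after raising signals to the lowest one well above background on the array. Such a fold is an estimate and not a lower limit of the change. The number of arrays limits the precision.

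Members and lists were chosen with earlier results of these data known. All *Sox* probes were described, with *Shh*, its targets, and up to 3 genes of lowest p per list; some of these genes are not reported here. Pool numbers mark shared slides by their labels, and the correlation of deviations within a slide was 0.191, 0.243 and 0.0328, so slide was an alternative as a fixed and as a random block (consensus correlation 0.103). The other alternatives were 75th percentile scaling of processed signals, the authors' values, quantile normalization, uncorrected background, an interquartile range filter or no filter, outlier spots kept, a variance trend, the mean over probes and leaving out each pool. The authors' values at a common median were added after seeing the data. On 7 simulated arrays of 10000 probes, limma called 76% of log2 changes of 1 and 97% of changes of 2, with 7.49% of calls false. Changes smaller than 1 and correlation within a slide were not simulated. The share called at the size of the *Sox* changes is therefore not known. Oligo sequences and mm9 positions come from the scan files, and *Sox2ot* was named through RefSeq synonyms. Exon and UTR annotation of mm9 was not used here. Figures used matplotlib 3.10.9 in Python 3.11.15.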

Additional observations from a re-analysis of the deposited data

Results flagged for a closer look

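A mutant pool far from the other 3 was found for 5 of the 52 probes of Sox genes, *Sox2ot* and Hedgehog genes examined, and chance alone puts about 5% of groups past this limit. For *Sox1*, mutant pool 1 read 4.62 and the others 4.14 to 4.21. A *Sox5* probe read 8.07 in mutant pool 1 and 3.65 to 3.76 in the others, and a second read 3.92 in mutant pool 4 against 3.57 to 3.60. The third tested *Sox6* probe read 6.44 in mutant pool 3 against 6.04 to 6.07. A dim *Sox2ot* probe read 5.16 in mutant pool 2, the pool whose label notes a possible leak, and 3.60 to 3.68 in the others. None of these is the brightest tested probe of its gene except that of *Sox1*, which was not tested.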

How the results depend on the processing

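No *Sox* gene tested passed in any setting (4 of the 8 were tested under the interquartile range filter). Apart from the authors' values as deposited, the changes of *Sox2* (−0.52 to −0.32), *Sox8* (−0.49 to −0.22), *Sox10* (−0.60 to −0.30) and *Sox7* (−0.31 to −0.07) kept their sign. In those deposited values they were −1.06, −0.89, −1.09 and −0.85, with the array shift given below. The number of probes called, 130 in the main setting, was 54 with 75th percentile scaling, 37 with no filter, 11 with slide as a fixed block, which takes no information from mutant pool 2, 0 in the authors' values (28 at an unadjusted p under 0.05) and 0 at their common median (1037), and 11 (without mutant pool 3) to 141 (without mutant pool 1) with 1 pool left out. It was 35 without mutant pool 2, 73 without mutant pool 4, and 16, 30 and 43 without wild-type pools 1, 3 and 4. The share of calls that were lower was 66.7% with 75th percentile scaling, 73.0% with no filter and 90.9% with the fixed block, against 53.1%, and 47.5% with a variance trend and 41.8% (without mutant pool 1) to 100% (without mutant pool 3) with 1 pool left out. In the authors' values the group medians were −0.89, −0.89 and −0.69 (neural, crest and sclerotome, endothelial or endoderm), beside a median over all probes of −0.54. There the array of mutant pool 2 has a median of 5.50 against 8.57 to 9.93 on the other 6, so signs in these values carry that shift and say nothing of a single gene. The cause of the other moves was not tested. Slide as a random block changed no *Sox* call.

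Changes near 0 turned sign. The values given below for the authors' values as deposited carry the array shift described above, so their signs say nothing of a single gene. The brightest *Sox9* probe had −0.0020 with 75th percentile scaling, −0.048 with quantile normalization, −0.029 with no background correction, −0.63 in the authors' values, −0.017 at their common median, −0.0072 with the fixed block and −0.076 to 0.093 with 1 pool left out. The *Sox11* probe with a change of 0.01 had −0.047, −0.046, −0.029, −0.63 and −0.019 in the first 5 of these, and −0.059 to 0.089 with 1 pool left out. *Sox17* had 0.053 with the fixed block and −0.13 to 0.053 with 1 pool left out, its second probe −0.21 to 0.057, *Sox18* −0.061 to 0.0092, and another *Sox11* probe −0.084 to 0.072. The second *Sox8* probe had 0.13 in the authors' values at a common median, and *Sox6* −0.21 in the authors' values. *Shh* passed in 5 settings, at an adjusted p as low as 0.0312.

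Few arrays and dim probes set the limits: the start probes of *Sox9* and *Sox10* and the probe of *Sox1* lay near background, and *Sox3* was not analysed here.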
